A study of Mus musculus with 6 samples.

Results

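Cells that copy their DNA need deoxyribonucleoside triphosphates (dNTPs), and the 9 genes described here encode enzymes that make dNTPs or limit them: Rrm1, Rrm2, Rrm2b, Tk1, Tyms, Dut, Dctpp1, Samhd1 and Dck. They were taken as the probe sets annotated with exactly 1 of these symbols, which gave 10 probe sets, 1 for each gene and a second for Tk1, of 23410 with a gene symbol and 35556 on the array. The 9 were chosen by function, but with the outcome of the comparison below already known, so their differences are given as a description of these arrays and support nothing beyond them.

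RNA was profiled in N2A cells, a mouse neuroblastoma line grown as a model of neural progenitors, 2.5 days after transient transfection of 1.5 ug of a construct expressing a short hairpin RNA (shRNA). Cells given a Dali knockdown construct (3 arrays) were compared with cells given a non-targeting vector (3 arrays, control), to ask what depletion of this long non-coding RNA does to the transcriptome. Both groups were transfected, a single Dali construct was used, and 200 ng of total RNA was labelled for each Affymetrix Mouse Gene 1.0 ST array. The samples are called biological replicates, but the cultures behind them are not described, and any p-value here reflects the spread among the 6 arrays, which may be technical.

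The depletion of Dali could not be checked on these arrays, since 0 probe sets were annotated to it. The study itself reports that transient transfection of its shRNA vector depleted Dali. Of 12 probe sets for lineage markers of sympathetic neuroblasts (among them Hand2, Phox2a, Stmn2 and Chga), the median ranked at the 89.6th percentile of the control arrays, and the lowest, Th, at 59.4. The medians of markers of fibroblasts, astrocytes, immune cells, and endothelial or epithelial cells ranked between 27.3 and 48. The highest single marker of these lists ranked at 65.7, 32.2, 40.2 and 53.5, so 1 fibroblast marker lay above Th. Correlations between arrays lay between 0.9904 and 0.9975. Arrays that carry replicate number 2 or 3 also shared deviations from the group means (correlations of 0.646 and 0.655). For number 1 the correlation was 0.141, and control array 1 correlated more with knockdown array 2 (0.202). Differences within a number are given throughout as pairs 1 to 3. The numbers come from the sample labels, and the choice to pair by them was made from these same arrays. Pair 1, and every result below that uses the pairing, carries this limit.

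Ribonucleotide reductase converts ribonucleoside diphosphates to their deoxy forms and is the entry point to de novo synthesis of dNTPs. Its large subunit, Rrm1, holds the catalytic and regulatory sites and pairs with a small radical-bearing subunit, either Rrm2, which cycling cells make around S phase and degrade in mitosis, or Rrm2b, which is induced through p53 and serves repair and mitochondrial DNA outside S phase. Thymidylate is made from dUMP by Tyms or salvaged by Tk1, and Dut supplies dUMP while removing dUTP. Dck salvages the other deoxynucleosides, whereas Samhd1 and Dctpp1 break dNTPs down.

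Several of these genes are textbook targets of E2F transcription factors and of CCAAT-binding NF-Y, and several of them varied together on the arrays, so their promoters were read from RefSeq. The RefSeq table (GRCm38.p6) held a window from 250 bases before to 50 bases after the start site for 8 of the 9 genes, and none for Rrm2b. The windows below are for the ribonucleotide reductase subunit that differed most (Rrm2, chr12:24708004-24708303, plus strand), its partner (Rrm1, chr7:102441445-102441744, plus strand), a gene with matches that differed little (Dctpp1, chr7:127260618-127260917, minus strand) and a salvage enzyme with none (Tk1, chr11:117825965-117826264, minus strand). They are printed 5′ to 3′ along the gene, with capitals for the NF-Y word CCAAT on either strand.
Rrm2: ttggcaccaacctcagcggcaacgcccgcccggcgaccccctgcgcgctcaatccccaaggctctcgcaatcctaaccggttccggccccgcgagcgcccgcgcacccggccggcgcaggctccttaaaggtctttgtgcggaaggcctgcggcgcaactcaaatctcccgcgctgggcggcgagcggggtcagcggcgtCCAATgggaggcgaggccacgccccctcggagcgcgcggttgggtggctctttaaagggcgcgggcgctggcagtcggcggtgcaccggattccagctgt
Rrm1: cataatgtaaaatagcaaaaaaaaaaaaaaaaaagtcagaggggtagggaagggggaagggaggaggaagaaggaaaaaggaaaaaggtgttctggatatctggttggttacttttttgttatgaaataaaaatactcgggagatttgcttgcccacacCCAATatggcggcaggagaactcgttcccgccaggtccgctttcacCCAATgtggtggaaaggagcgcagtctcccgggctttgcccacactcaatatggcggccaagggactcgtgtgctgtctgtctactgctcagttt
Dctpp1: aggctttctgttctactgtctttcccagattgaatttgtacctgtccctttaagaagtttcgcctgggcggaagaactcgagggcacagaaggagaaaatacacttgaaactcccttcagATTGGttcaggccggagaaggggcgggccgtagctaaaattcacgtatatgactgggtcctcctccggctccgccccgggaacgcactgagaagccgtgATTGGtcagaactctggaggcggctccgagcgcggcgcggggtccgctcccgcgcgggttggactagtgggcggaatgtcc
Tk1: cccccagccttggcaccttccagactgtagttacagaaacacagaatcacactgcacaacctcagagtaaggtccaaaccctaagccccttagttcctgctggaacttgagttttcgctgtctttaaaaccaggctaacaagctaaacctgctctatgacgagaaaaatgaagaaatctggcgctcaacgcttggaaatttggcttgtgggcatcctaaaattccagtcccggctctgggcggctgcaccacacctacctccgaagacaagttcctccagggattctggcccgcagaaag

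CCAAT or its reverse complement stood in 3 of the 8 windows, beginning at -50 in Rrm2, at -91 and -45 in Rrm1, and at -130 and -31 in Dctpp1, where positions count from the start site. It is also found in 37.4% of the 32851 promoter windows in the table. The E2F words TTTGGCGC, TTTCCCGC, TTTGCCGC and TTTCGCGC matched none of the 8 on either strand, against 2.26% of all windows, and TATAAA matched none, against 13.6%. The cell cycle word TTTGAA occurred only in Dck, reversed, at -245, against 17.9% of all windows. The Rrm2 window was 71.3% G or C with 40 CpG dinucleotides, and that of Rrm1 was 47% with 9, where the median of all windows was 52.7% with 7. These words do not overlap each other in the windows and are matches of letters only.

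Rrm2 rose on Dali knockdown and was the single gene of the 9 to be called. The test covered 11705 of the 35556 probe sets on the array. Its log2 value was 11.88, 11.55 and 11.74 in knockdown arrays 1 to 3, against 10.99, 10.61 and 10.77 in control arrays 1 to 3. Every knockdown array lay above every control array, and the gap between the groups was wider than the range within either. The means were 11.72 ± 0.16 in knockdown and 10.79 ± 0.19 in control cells (SD, n = 3 each), a difference of 0.93 (SE 0.15) or 1.91-fold, with a 95% interval of 1.54 to 2.36-fold (limma adjusted p = 0.012). The pairs gave 0.89, 0.94 and 0.97. Of 11705 probe sets tested, it had the difference of rank 2 from the top and the p-value of rank 6. A call here means a Benjamini-Hochberg adjusted p under 0.1 over all probe sets tested and a change of at least 1.3-fold.

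Rrm1, the partner subunit, was also higher on every knockdown array, by much less. It read 12.62, 12.39 and 12.64 in knockdown arrays, against 12.35, 12.04 and 12.18 in control arrays. The smallest knockdown value exceeded the largest control value by a margin far smaller than the spread within a group. The difference was 0.36 (SE 0.14, 95% interval 0.06 to 0.66, limma adjusted p = 0.29), and the pairs gave 0.27, 0.35 and 0.46. With the replicate number as a block its adjusted p was 0.030, but the 1.29-fold difference stayed under the bound of 1.3. In the control arrays Rrm1 ranked between the 94.6th and 96.2nd percentile of probe sets with 1 symbol, and Rrm2 between 80.5 and 85.4.

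Rrm2b, the alternative small subunit, did not separate the groups. Its values were 9.66, 9.72 and 9.41 in knockdown arrays, against 9.46, 9.65 and 9.13 in control arrays. Replicate 3 was the lowest array and replicate 2 the highest in either group, and the groups overlapped. The difference was 0.18 (SE 0.16, 95% interval -0.14 to 0.51, limma adjusted p = 0.69), so an increase of up to 1.43-fold lies within the interval. All 3 pairs were positive, at 0.20, 0.07 and 0.28. The difference was 0.04 without control array 3, 0.12 without knockdown array 2, 0.28 without knockdown array 3 and 0.30 without control array 2.

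The measured difference was thus larger for Rrm2 than for the other subunits, while the intervals of Rrm1 and Rrm2b overlapped. Whether the probe sets respond equally to a change in transcript was not tested. Within each array, the log2 ratio of Rrm2 to Rrm1, set relative to the control mean, was 0.66, 0.56 and 0.49 in knockdown arrays and 0.04, -0.03 and -0.01 in control arrays. Control arrays hardly differed in this ratio (SD 0.035), although Rrm1 and Rrm2 each varied between them, and the knockdown arrays all stood apart. The ratio of Rrm2 to Rrm2b was 0.84, 0.46 and 0.95 in knockdown arrays, against 0.15, -0.41 and 0.26 in control arrays, with a mean shift of 0.75. The ratio of Rrm1 to Rrm2b overlapped between groups, with a shift of 0.18.

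**Figure D1:**
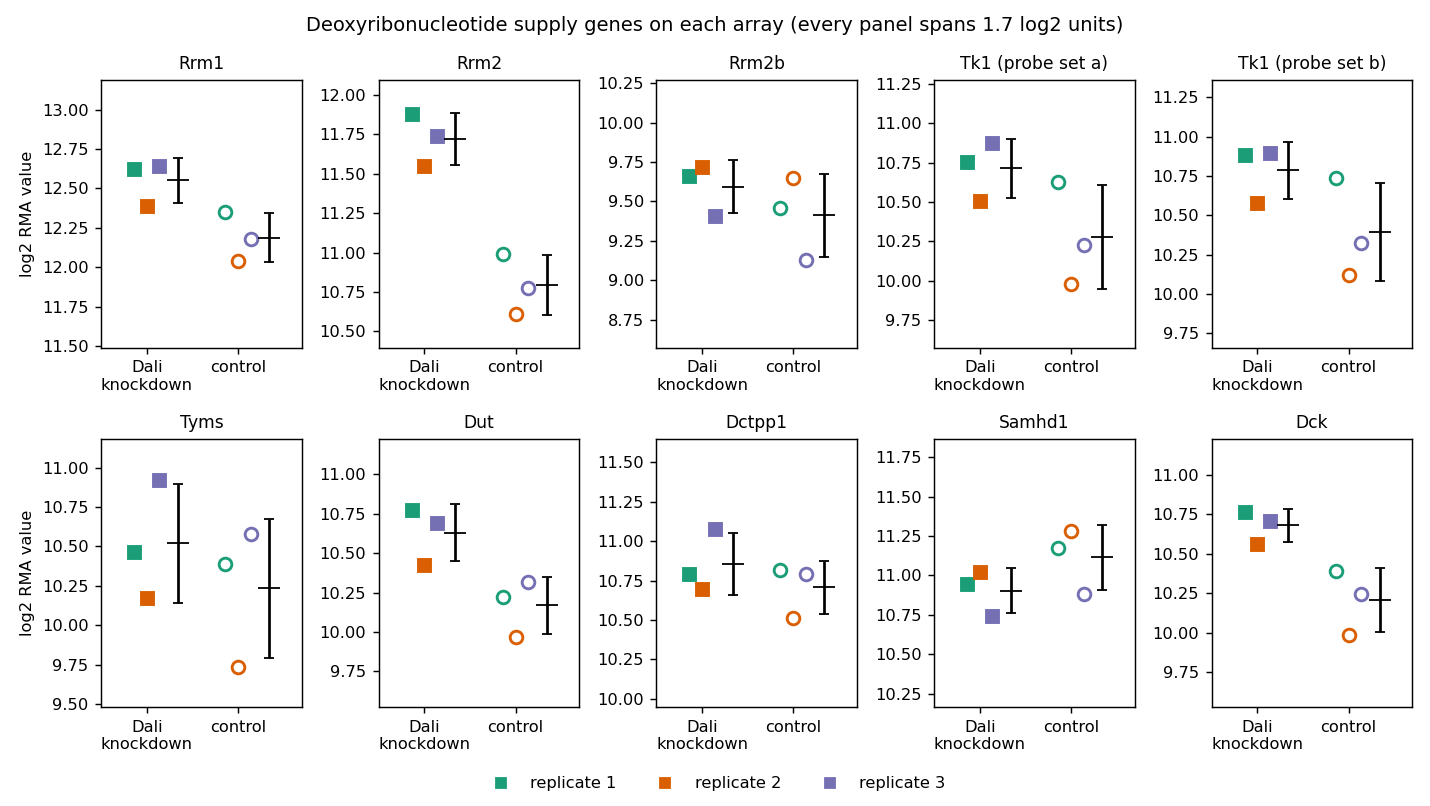
Log2 RMA values (vertical axes, each spanning the same range) of the 10 probe sets on Dali knockdown arrays (filled squares, left) and control arrays (open circles, right), coloured by replicate number, with the mean and SD (n = 3) beside each group. Rrm2 stands apart by the widest gap (means 11.72 and 10.79), while both Tk1 probe sets, Rrm2b, Tyms, Dctpp1 and Samhd1 overlap.

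The thymidylate branch differed less, and its genes did not behave alike. Dut, which hydrolyses dUTP to dUMP, read 10.78, 10.43 and 10.69 in knockdown arrays, against 10.22, 9.97 and 10.32 in control arrays. All knockdown arrays lay above all control arrays, by a narrow margin between knockdown array 2 and control array 3. The difference was 0.46 (SE 0.15, 95% interval 0.15 to 0.77, 1.38-fold) with a limma adjusted p of 0.18, or 0.015 and past the call with the replicate block. The pairs gave 0.55, 0.46 and 0.37.

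Tk1, the cytosolic thymidine kinase of S phase, was measured by 2 probe sets with overlapping transcript annotation (r = 0.994 between them over 6 arrays), which are not independent. The first read 10.76, 10.51 and 10.88 in knockdown arrays, against 10.63, 9.98 and 10.23 in control arrays, and the second 10.88, 10.58 and 10.90 against 10.74, 10.12 and 10.33. In both, control array 1 lay above knockdown array 2, so the groups overlapped. The differences were 0.44 (SE 0.17) and 0.39 (SE 0.16), with limma adjusted p of 0.27 and 0.33, or 0.041 and 0.042 with the replicate block, where both were called. Pair 1 contributed little (0.13 and 0.15), while pairs 2 and 3 gave 0.53 and 0.65 for the first probe set and 0.45 and 0.57 for the second. Without control array 2 the differences were 0.29 and 0.25.

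Tyms, the thymidylate synthase, was the most variable of the genes within groups. It read 10.46, 10.17 and 10.92 in knockdown arrays, against 10.39, 9.74 and 10.58 in control arrays. Control array 3 was above knockdown arrays 1 and 2, and the SD was 0.38 in knockdown and 0.44 in control cells, larger than the difference of 0.29 (SE 0.21, 95% interval -0.15 to 0.72, limma adjusted p = 0.61, or 0.085 with the replicate block, under 1.3-fold). Without control array 2 the difference was 0.04, and without knockdown array 3 it was 0.08.

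Dck, which phosphorylates deoxycytidine and the purine deoxynucleosides, had the second largest difference of the 9 genes and the tightest knockdown values. It read 10.77, 10.56 and 10.71 in knockdown arrays, against 10.39, 9.99 and 10.24 in control arrays. No knockdown array fell within the control range. The difference was 0.47 (SE 0.14, 95% interval 0.17 to 0.78, 1.39-fold), with a limma adjusted p of 0.15, or 0.015 and past the call with the replicate block. The pairs gave 0.38, 0.58 and 0.47.

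Neither Samhd1 nor Dctpp1, which break dNTPs down, was called. Samhd1, a dNTP triphosphohydrolase that is induced by interferon and restricts retroviruses, was the only gene of the 9 with a lower mean in knockdown cells. It read 10.94, 11.02 and 10.74 in knockdown arrays, against 11.18, 11.28 and 10.88 in control arrays. Knockdown arrays 1 and 2 lay above control array 3, so the groups overlapped, although each pair was negative (-0.23, -0.26 and -0.14). The difference was -0.21 (SE 0.15, 95% interval -0.52 to 0.10, limma adjusted p = 0.59, or 0.12 with the replicate block). It was -0.13 without knockdown array 3 or without control array 2, and -0.33 without control array 3. Dctpp1, a pyrophosphatase acting on dCTP, read 10.79, 10.70 and 11.08 in knockdown arrays, against 10.82, 10.51 and 10.79 in control arrays. Its pair 1 was -0.02 and its mean difference 0.15 (SE 0.13, limma adjusted p = 0.78 without the variance filter, which had removed this gene).

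**Figure D2:**
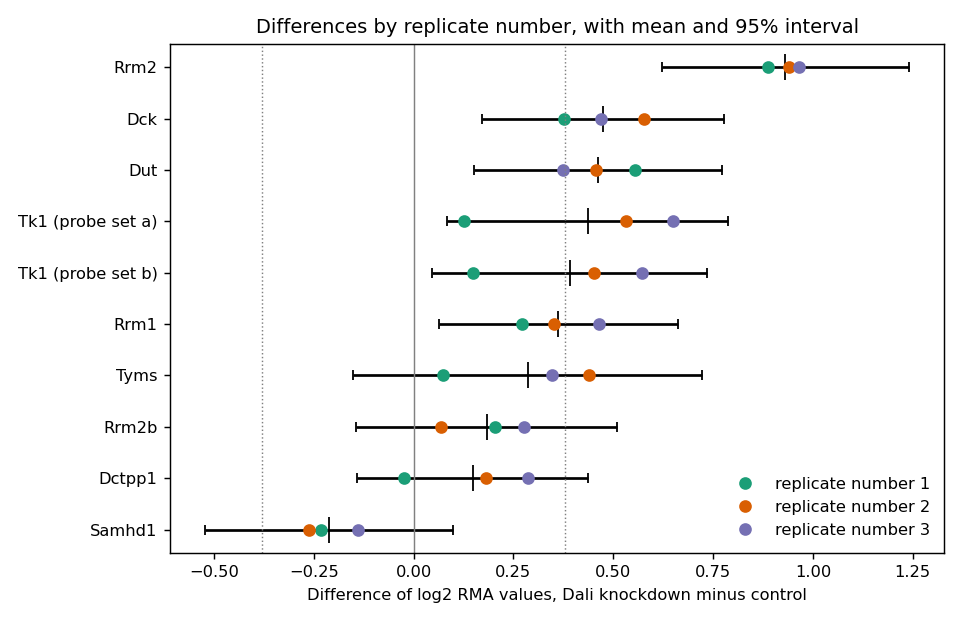
Difference of log2 RMA values, Dali knockdown minus control (horizontal axis), for each probe set (vertical axis). Coloured points are differences between arrays of the same replicate number, black bars the mean with the 95% interval of the limma fit without a block, and dotted lines 1.3-fold in either direction. The 3 points of Rrm2 lie between 0.89 and 0.97, beyond those of every other gene, and those of Samhd1 lie below 0.

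Of the 9 probe sets kept by the variance filter (8 genes), 1 was called, against 1.14% of the 11705 tested in either direction and 0.367% called higher. With the replicate block 5 were called higher (Rrm2, Dck, Dut and both of Tk1), against 2.77% of all. Complete separation upwards was seen for 4 (Rrm1, Rrm2, Dut and Dck), against 9.55% of the probe sets tested. Their median difference was 0.38 over all 10 probe sets, against 0.02 over all annotated probe sets, and 8 of the 10 were higher in every pair, against 23.4% of probe sets tested. These counts were known when the genes were chosen. The call of Rrm2 was lost without knockdown array 1 (difference 0.85, limma adjusted p = 0.18) and when unannotated rows were filtered and adjusted along with the rest (0.39). Without the filter the adjusted p was 0.094.

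Arrays within a group differed in the same direction for most of the genes. Control array 2 was the lowest of the 6 arrays in 8 of the 10 probe sets, the exceptions being Rrm2b and Samhd1, whereas it was lowest in 20.8% of the probe sets tested. Knockdown array 3 was highest in 5 and knockdown array 1 in 3. The deviations from group means of Rrm1, Rrm2, Tk1, Dut and Dck correlated with each other at 0.66 to 0.97 over the 6 arrays (14 pairs of probe sets), and those of Tyms and Dctpp1 at 0.96. Tyms and Dctpp1 correlated with the genes of the first group at 0.57 to 0.82, so the grouping is not sharp. Samhd1 and Rrm2b ran the other way, with correlations of -0.91 to -0.24 to the remaining probe sets and 0.99 to each other. Arrays were normalised together and share replicate numbers, and with 6 arrays these correlations only describe the pattern.

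**Figure D3:**
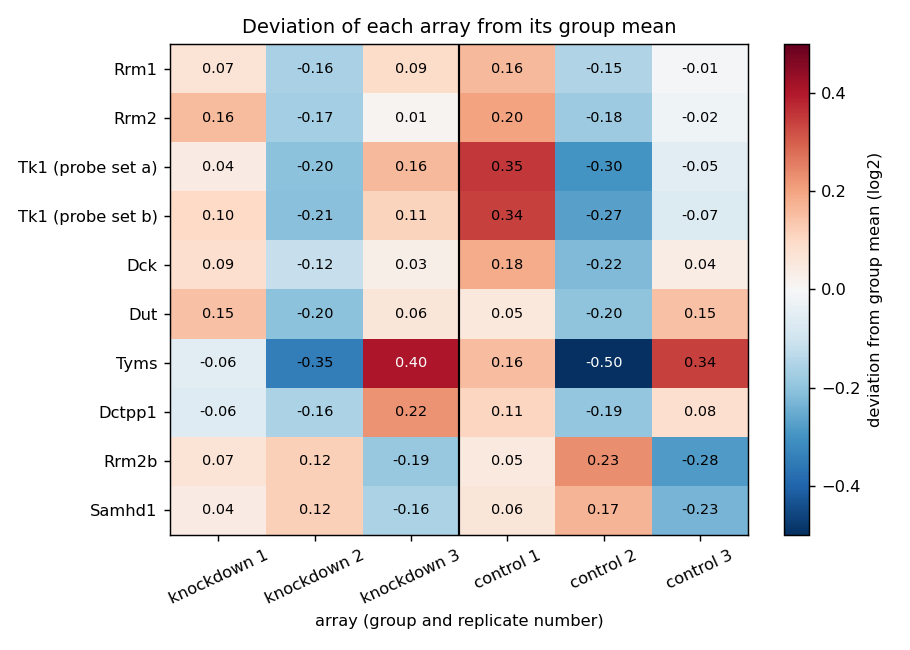
Deviation of each array from its group mean (colour and printed value, log2 units) for the 10 probe sets (rows), with knockdown arrays left of the line and control arrays right of it. Replicate 2 is low in both groups for all probe sets but Rrm2b and Samhd1, which are high there, and Tyms shows the widest range (-0.50 to 0.40).

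Markers of proliferating cells also tended to read higher, without passing the test. Of 16 probe sets for 14 such genes, 15 averaged higher on the knockdown arrays. Their median difference was 0.34, and limma called 0 of the 15 tested. At an unadjusted p under 0.05 there were 10, all higher, against 1488 (12.7%) of the 11705 probe sets in either direction, and the replicate block called 5 higher, against 2.77% of all. The array medians of this list lay between 11.94 and 12.17 in knockdown and between 11.60 and 12.02 in control cells. The G1 cyclin genes Ccne1 (0.46) and Ccne2 (0.51) had the smallest p-values (limma adjusted p = 0.13 for both), and both were called with the block (0.013 and 0.011). Control array 2 was lowest in 13 of the 16, as for the dNTP genes. The list medians of the pairs were 0.25, 0.38 and 0.39, near those of Rrm1 and below the 0.89 to 0.97 of Rrm2. In bulk RNA, a larger share of cycling cells and more transcript per cell cannot be told apart, and the part of proliferation in the differences above was not tested.

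Rrm2b and Samhd1 belong to other programmes, which are given here beside them. Of 18 genes listed as p53 targets, 15 were measured, and Cdkn1a, Bax and Gdf15 were not. Among those measured, Ccng1, which encodes an atypical cyclin, fell, with a difference of -0.64 (limma adjusted p = 0.053). The 11 other probe sets tested were not called, and the median was -0.06. At an unadjusted p under 0.05 there were 5 lower and 1 higher. The replicate block called 5 lower, against 4.89% of all probe sets tested, and 1 higher, Sesn2 (0.45, limma adjusted p = 0.17, or 0.015 with the block). Of the 5 lower, Trp53inp1 differed most (-0.79, limma adjusted p = 0.33, or 0.0064 with the block). The 17 interferon response probe sets had a median of -0.33. Of the 15 tested, limma called 0, with 6 lower and 2 higher at an unadjusted p under 0.05, or 8 lower and 1 higher with the block. The higher one was Ifit1, which binds foreign RNA (0.60, limma adjusted p = 0.25, or 0.0089 with the block, with pairs of 0.63, 0.66 and 0.52). Of the 8 lower, Usp18 differed most (-0.62, limma adjusted p = 0.13, or 0.0091 with the block). Irf9, a subunit of the interferon-activated transcription complex, differed by -0.51 and the interferon-induced Ifit2 by 0.35 (limma adjusted p = 0.14 and 0.29). With the block Irf9 was called (0.013) and Ifit2, under 1.3-fold, was not. The array medians of the interferon list were 8.24, 8.05 and 7.49 in knockdown arrays and 8.07, 8.46 and 7.70 in control arrays. Control arrays had the same order in this list as in Samhd1, with array 2 highest and array 3 lowest, and knockdown array 3 was the lowest of the 6 for each. By these medians knockdown arrays did not, since array 1 was highest in the list and array 2 in Samhd1. Knockdown array 1 also lay above control array 1 in the list median but below it in Samhd1. Such medians mix the levels of unlike genes, and that of knockdown array 1 was the value of Ifit1, which differed upwards. The median difference over the list was -0.35, -0.26 and -0.38 in pairs 1 to 3, negative in each pair as for Samhd1. Whether the interferon response has a part in the Samhd1 values was not tested.

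Other enzymes of nucleotide metabolism, listed by function, did not share a direction. In the lists that follow, limma called 0 of the probe sets tested, and those at an unadjusted p under 0.05 or called with the block can be read against the shares above. Electron donors of ribonucleotide reductase had a median difference of 0.02 over 7 probe sets, of which 3 were tested, with 1 higher at an unadjusted p under 0.05 and 0 called with the block. Txnrd1, the cytosolic thioredoxin reductase, differed by 0.30 and the glutathione reductase Gsr by 0.19 (limma adjusted p = 0.37 and 0.60). With the block the limma adjusted p of Txnrd1 was 0.047, but its difference stayed under 1.3-fold. In the folate cycle that feeds Tyms, the median was 0.03 over 11 probe sets, of which 7 were tested, with 1 higher at an unadjusted p under 0.05. There, the serine hydroxymethyltransferase gene Shmt1 read 10.12, 9.89 and 10.48 in knockdown arrays, against 9.55, 9.41 and 9.82 in control arrays, with every knockdown array higher (0.57, limma adjusted p = 0.13, or 0.0093 and past the call with the replicate block). Mthfd1, which interconverts folate one-carbon forms, differed by 0.22.

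Nucleotide kinases that raise mono- and diphosphates to triphosphates had a median of -0.01 over 15 probe sets, of which 9 were tested, with 1 lower at an unadjusted p under 0.05 and the same 1 called lower with the replicate block. That was 1 of 2 probe sets of Ak4, a mitochondrial adenylate kinase, at -0.48 (limma adjusted p = 0.15, or 0.021 with the block), where the other differed by -0.30, while Cmpk2, a mitochondrial UMP-CMP kinase, differed by -0.25. Salvage, mitochondrial supply and transport genes had a median of -0.03 over 20, of which 10 were tested, with 4 lower at an unadjusted p under 0.05 and 2 called lower with the block. These were Cda, the cytidine deaminase (-0.54, limma adjusted p = 0.34, or 0.015 with the block), and Upp1, the uridine phosphorylase (-0.43, limma adjusted p = 0.20, or 0.038 with the block). The mitochondrial counterpart of Tk1, Tk2, differed by -0.29 and the nucleoside transporter Slc29a3 by -0.35 (limma adjusted p = 0.38 and 0.30). With the block the limma adjusted p was 0.0635 and 0.0326, but both stayed under 1.3-fold, so neither was called. Breakdown and pool-cleaning enzymes had a median of -0.02 over 16, of which 10 were tested, with 2 lower at an unadjusted p under 0.05. The 5′-nucleotidase Nt5c differed by -0.29 and the ureidopropionase Upb1 by -0.27. Dpyd, which degrades pyrimidines, was called lower with the block alone (-0.41, limma adjusted p = 0.38, or 0.029 with the block).

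De novo synthesis of the ribonucleotides that feed the reductase lay between. All 5 genes of the pyrimidine route were measured, with a median of 0.29, and of the 3 tested 2 were higher at an unadjusted p under 0.05, but 0 were called with the block either. Umps, which completes UMP, differed by 0.35 and Ctps, the CTP synthase, by 0.32 (limma adjusted p = 0.33 for both), each higher in 3 of 3 pairs. With the block the limma adjusted p was 0.032 and 0.039, but both stayed under 1.3-fold. The purine route had a median of 0.12 over 12 probe sets, of which 7 were tested, with 3 higher at an unadjusted p under 0.05. With the block, Ppat, which commits the route, was higher (0.39, limma adjusted p = 0.20, or 0.021 with the block), and Adssl1, the muscle-type adenylosuccinate synthase, was lower (-0.43, limma adjusted p = 0.51, or 0.016 with the block). Prps1, which makes the ribose donor, differed by 0.34 (limma adjusted p = 0.29, or 0.032 with the block, under 1.3-fold).

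**Figure D4:**
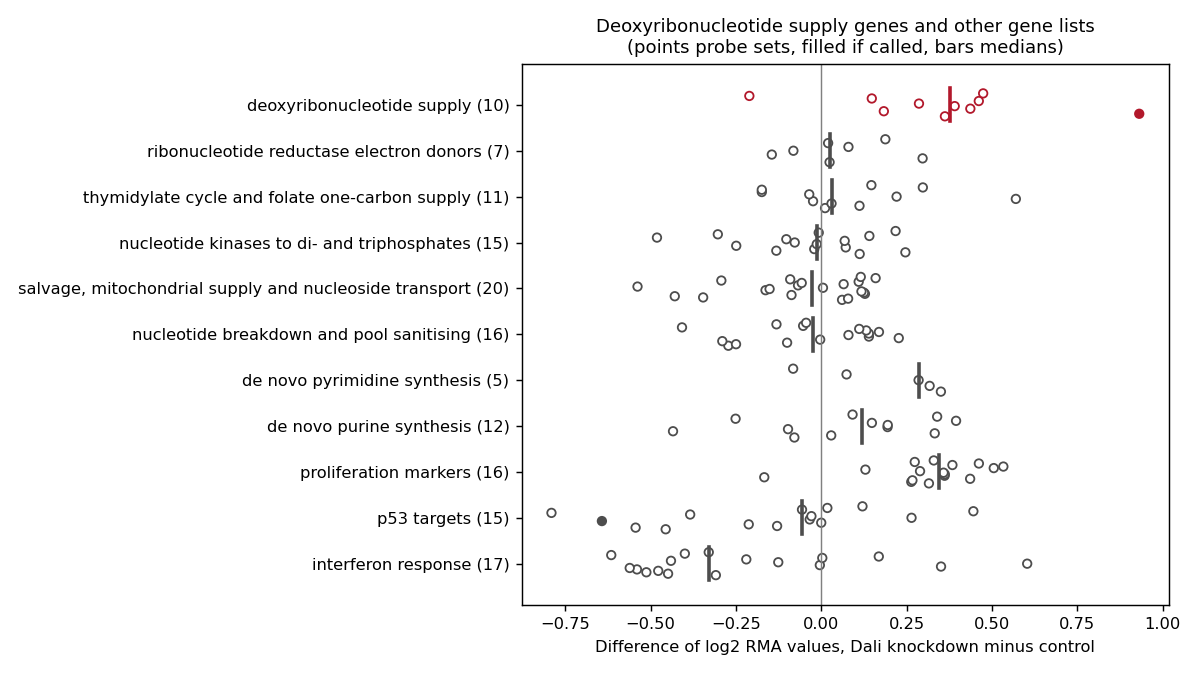
Difference of log2 RMA values, Dali knockdown minus control (horizontal axis), for probe sets of the 9 genes (red) and of other lists (grey), with the number of probe sets after each name. Filled points were called without the block and vertical bars are medians. The 9 genes have a median of 0.38, proliferation markers 0.34 and interferon response genes -0.33, and the filled points are Rrm2 and Ccng1.

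The genes whose 6 values followed Rrm2 most closely, of 21779 probe sets with 1 symbol, were Nup50, a nuclear pore protein (Pearson r = 0.9980), Alms1 of the centrosome (0.9963), Sohlh2, a germ cell transcription factor (0.9959), the phosphatase subunit Ppp1cc (0.9951) and the chromatin protein Epc1 (0.9945). None of them was called, and their differences, from 0.22 to 0.47, were smaller than that of Rrm2. By deviations from group means, which leave out the difference between groups, the closest were Galntl5 (0.9986), Olfr707 (0.9979) and the mitotic genes Bub1b (0.9977), Bub1 (0.9966) and Ccnb2 (0.9965). Galntl5 and Olfr707 are known from testis and from smell. How close the nearest of so many probe sets comes to other profiles over 6 arrays was not tested. No relation to Rrm2 is therefore read from any of these genes.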

How the data were processed

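N2A RNA was measured on 6 arrays, 3 Dali knockdown and 3 control. The authors background corrected the probe intensities by RMA, quantile normalised the arrays and summarised each gene-level probe set, and deposited log2 values (2.76 to 14.8). For their software, versions are not given in the sources used here. Array annotation paired 21789 of 35556 rows with 1 gene symbol and 1621 with several, and 12146 rows were left unnamed. 

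As in the study's methods, limma and a variance filter were used. Of 23410 annotated rows, the 11705 with an interquartile range above the median were kept. Reading the filter so, and removing unannotated rows first, were choices made here. Groups were compared with limma 3.58.1 in R 4.3.3 (lmFit and eBayes, two-sided), and a probe set was called at an adjusted p under 0.1 with at least 1.3-fold. Dctpp1, which the filter removed, was taken from the fit without it. Named genes were all 9 members, up to 4 called genes of each list or otherwise the 2 with the smallest p without the filter, and the 5 genes most like Rrm2 by each measure. Cda, Tk2, Dpyd, Adssl1, Sesn2, Trp53inp1, Ifit1 and Usp18 were added after their values were seen. Hand2, Phox2a, Stmn2, Chga and Th are examples of markers. The members and lists were chosen with earlier results of these data known. List medians are over probe sets, and those of Ggh had identical values.

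Deviations of arrays with the same replicate number from their group means correlated at 0.141, 0.646 and 0.655, all above 0.1, so the numbers in the labels were treated as pairs. For number 1 this was not specific, since control array 1 correlated more with knockdown array 2 (0.202). For the named genes, the fit with the number as a block is given where it changed a call. The scripts were tested on simulated data. The number of arrays limits the precision. Alternatives were the block, no filter, unannotated rows included, median centring, a variance trend, a filter on dim probe sets, a stricter threshold and leaving out each array.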

Additional observations from a re-analysis of the deposited data

How the results depend on the processing

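All 6 arrays bear on the counts. Of 11705 probe sets 133 were called (43 higher, 90 lower), and 1 of the 9 dNTP supply probe sets kept. With the replicate block these were 896 and 5. Without the variance filter 41 were called in all, at an adjusted p under 0.05 it was 32, and with unannotated rows included 0 in all and 0 of the dNTP supply genes (1597 at an unadjusted p under 0.05). Leaving out each array gave 4 to 508 in all and 0 to 3 of the dNTP supply probe sets. Without knockdown array 1 there were 4 and 0, without knockdown array 2 there were 508 and 3 (Rrm2, Dut and Dck), without knockdown array 3 there were 117 and 1, and without control arrays 1, 2 and 3 there were 53, 63 and 331, with 1, 1 and 2 (Rrm2, and Dut without array 3). With arrays centred on their median, 57 rose and 71 fell. A variance trend gave 191 and a filter on dim probe sets 156, each with Rrm2 alone among the 9 genes. No difference of a dNTP supply gene changed sign under any of these alternatives for which it was kept, and that of Rrm2 stayed between 0.84 and 1.03. The causes of these shifts were not tested. The block added Dck, Dut and Tk1, kept Rrm2, and changed no other call among the 9 genes. Signal over background could not be assessed, since only summarised values were used here.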
